A study of Mus musculus with 6 samples.

Results

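The genes described here are the cadherins and protocadherins of the mouse, in fully grown oocytes at the germinal vesicle stage. Members were matched by gene symbol, which gave 93 of the 24028 genes in the table. They comprise 23 cadherins (5 type I, 13 type II and 5 others), 12 non-clustered protocadherins (4 delta1, 5 delta2 and 3 others) and 58 clustered protocadherins (14 in the Pcdha, 22 in the Pcdhb and 22 in the Pcdhg cluster). The family was chosen by its differences between the groups in these same libraries, so the counts and changes below describe the members and are no independent evidence for them. The 3 dKO libraries came from Ring1 -/-; Rnf2 f/f females that carried Zp3-cre, a recombinase transgene driven by the promoter of a zona pellucida gene and active in growing oocytes. The 3 control libraries came from Ring1 -/-; Rnf2 f/f females with no cre. Both groups therefore lack Ring1, and what the transgene does by itself cannot be told apart from Rnf2 loss. Both groups had a mixed FVB, 129/Sv and C57BL/6J background and an age of about 3 months. Each library held 15 oocytes pooled from 1 female, freed of granulosa cells by pipetting, so replicates were separate animals.

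Cadherins are transmembrane proteins that bind cadherins on the facing cell in the presence of calcium, and catenins tie their cytoplasmic tails to actin. Type I and type II cadherins form adherens junctions, whereas protocadherins bind weakly and mostly serve recognition between cells, above all between neurons. In the Pcdha and Pcdhg clusters each isoform has its own promoter and first exon, spliced to constant exons that all isoforms of the cluster share. In the ovary, cadherins hold the oocyte to its granulosa cells, and E-cadherin stored in the egg is later used when the embryo compacts. Ring1 and Rnf2 encode the E3 ubiquitin ligases at the core of Polycomb repressive complex 1, which holds many developmental genes silent.

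The unit is FPKM, in which fragments are divided by transcript length and library size, so levels of different genes are compared per length. Absolute depth is unknown. Relative to control replicate 1, the depth read from low values was 0.663, 0.805 and 1.09 in the dKO libraries and 0.904 and 1.02 in the other controls, so low values are least precise in dKO replicates 1 and 2. The libraries correlated at 0.928 to 0.948 within the dKO group, 0.982 to 0.983 within the controls and 0.866 to 0.917 between the groups (Pearson, log2(FPKM + 1)). Rnf2 was at 14.8, 8.44 and 5.31 FPKM in dKO oocytes and at 53.7, 46.8 and 48.2 FPKM in controls. Its log2 change was -2.37 ± 0.30 (SE, limma adjusted p = 0.000696, n = 3 each), and its exons overlap those of Trmt1l on the other strand. Ring1 was at or below 0.240 FPKM in every library of both groups.

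Most of the family was weakly present or undetected. Of the 93 genes 46 never reached 0.1 FPKM in any library, among them 39 of the 58 clustered protocadherins but only 4 of the 23 cadherins, and Pcdh20 was listed at 0 in all 6 libraries. In dKO oocytes 19, 20 and 19 members reached 1 FPKM, against 12, 11 and 11 in controls. The count over all genes was also higher in dKO oocytes, with 11552, 11717 and 11188 genes at 1 FPKM or more in dKO and 10524, 10381 and 10251 in control libraries. Cdh1, which encodes E-cadherin, was the most abundant member in every library. It made up 38.5%, 46.0% and 42.4% of the family's summed FPKM in dKO oocytes and 53.5%, 60.7% and 54.0% in controls.

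The summed level was read for each subfamily. The 13 type II cadherins summed to 22.0, 20.0 and 14.7 FPKM in dKO oocytes and to 8.51, 7.27 and 7.87 FPKM in controls. The delta2 protocadherins summed to 8.88, 9.43 and 8.75 FPKM in dKO and 2.14, 2.04 and 1.90 FPKM in control oocytes. The 14 genes of the Pcdha cluster summed to 4.43, 4.40 and 3.98 FPKM in dKO and 0.986, 0.286 and 0.324 FPKM in control oocytes. The 5 other cadherins, mostly Cdh17, summed to 18.3, 17.4 and 13.1 FPKM in dKO and 3.99, 5.34 and 3.40 FPKM in control oocytes. The Pcdhb cluster summed to 3.79, 4.59 and 6.24 FPKM in dKO and 1.96, 2.53 and 3.77 FPKM in control oocytes, where the lowest dKO and the highest control sum were about equal. In these 5 subfamilies and in the Pcdhg cluster every dKO library was the higher. The sum of the delta1 protocadherins, nearly all of it Pcdh9, went the other way. It was 13.3, 17.3 and 21.7 FPKM in dKO and 28.7, 26.8 and 32.4 FPKM in control oocytes. The other non-clustered protocadherins overlapped between the groups, and so did type I cadherins, dominated by Cdh1, at 122, 165 and 122 FPKM in dKO and 124, 151 and 127 FPKM in control oocytes. In pooled oocytes, a smaller number of cells with a transcript and less transcript per cell cannot be told apart.

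**Figure D1:**
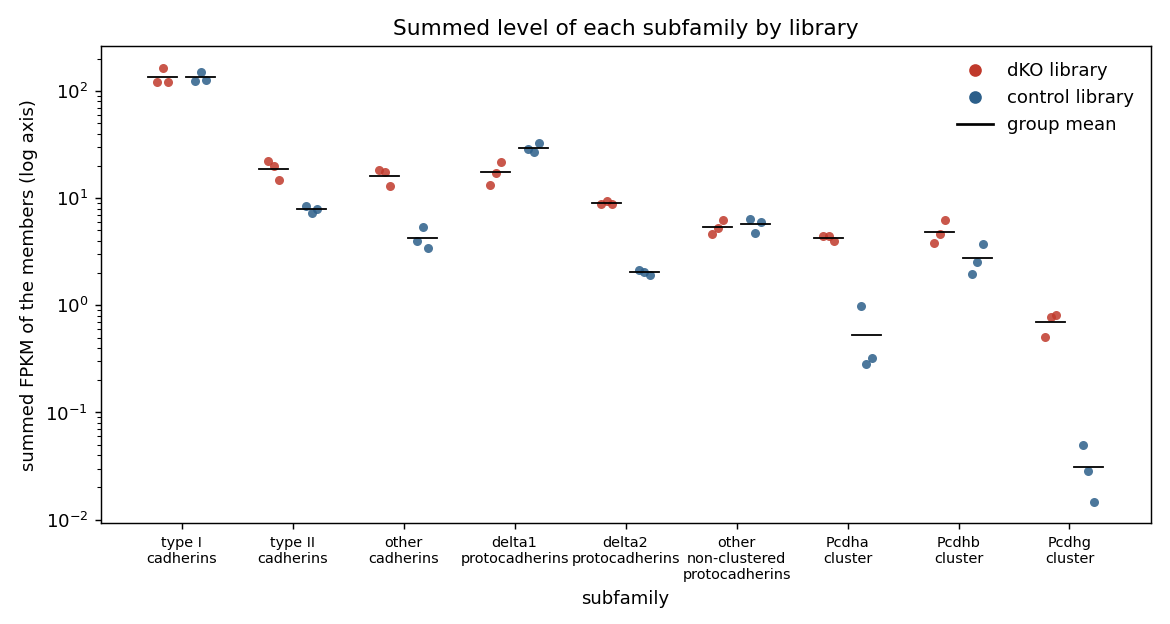
Summed FPKM (log axis) of the members of each of the 9 subfamilies, with 1 point per library, dKO libraries in red to the left of control libraries in blue, and the group mean as a black bar. Sums of type II and other cadherins, delta2 protocadherins and the 3 clusters were higher in every dKO library, those of delta1 protocadherins lower, and those of type I cadherins and other non-clustered protocadherins overlapped. Cdh1, Cdh17 and Pcdh9 made up most of the sums of type I cadherins, other cadherins and delta1 protocadherins.

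Genes that reached 1 FPKM in 3 or more libraries were tested with limma on log2(FPKM + 1), with p-values adjusted over all 11334 of them and a threshold of 0.05. The filter left 17 of the 93 members, so 76 were not tested. Of the 17, 9 rose in dKO oocytes, 2 fell and 6 did not pass. Across all tested genes 14.0% rose and 7.04% fell. The median log2 change was 0.84 over the 17 members and -0.019 over all tested genes. By branch, 7 of the 11 tested cadherins rose and 1 fell, 1 of 4 non-clustered protocadherins rose and 1 fell, and 1 of 2 clustered protocadherins rose. Of the 9 that rose, 5 (Cdh19, Cdh8, Cdh13, Pcdhac2 and Pcdh19) were below 1 FPKM on average in controls and entered the test through their dKO libraries. Among all tested genes with so low a control mean 77.4% rose, so nothing is read from those 5 calls. The counts of rises and the median over the members include these 5 genes and are a description only.

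The count depends on the filter. With no filter, 14 of 92 members rose and none fell (limma, adjusted over 20310 genes, and 24 and 2 at an unadjusted p below 0.05), against 9.88% and 2.68% of all genes. The median log2 change was then 0.023 over the members and 0.029 over all genes. It was 0.33 over the 23 cadherins, 0.079 over the 11 non-clustered and 0.014 over the 58 clustered protocadherins. The log2 scale understates changes of low genes, and 39 of the 58 clustered genes but 4 of the 23 cadherins never reached 0.1 FPKM. These medians therefore cannot rank the branches by their change. The mean summed FPKM in dKO oocytes relative to controls was 1.17, 0.859 and 2.97 for the branches in the same order. A count that uses no model takes genes at 0.1 FPKM or more in all libraries of a group, a floor set after the values were seen, and asks whether the groups overlap. Some members enter it through dKO libraries alone, so it is a description only. Of 30 such members 20 had every dKO library above every control and 2, Cdh24 and Pcdh9, every dKO library below. Over all 14712 such genes these shares were 26.7% and 16.5%. The 20 comprised 12 of 17 cadherins, 4 of 6 non-clustered and 4 of 7 clustered protocadherins.

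**Figure D2:**
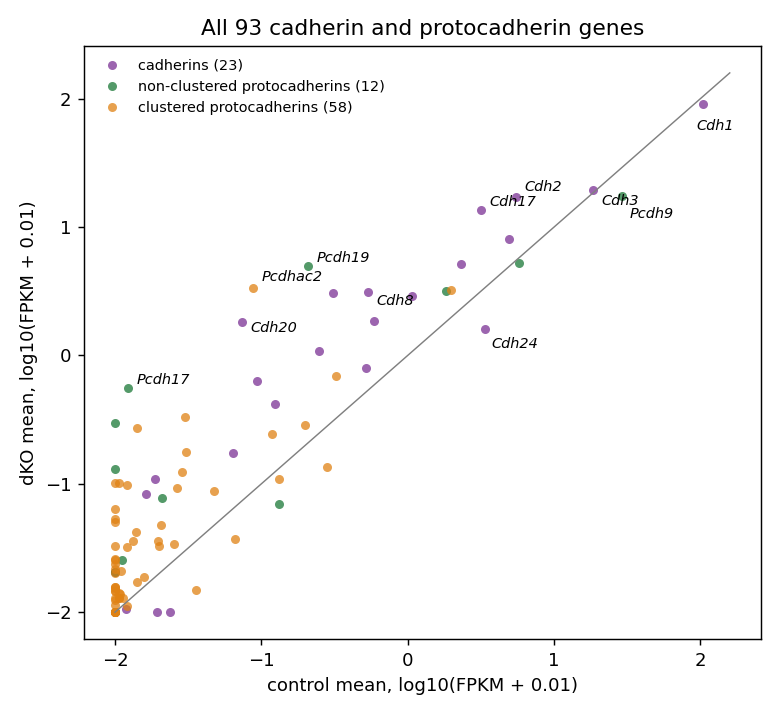
Mean level in dKO oocytes against mean level in control oocytes, both as log10(FPKM + 0.01), for the 93 members, with the line of equal means. Cdh1 and Cdh3 lie near the line, Pcdh9 and Cdh24 below it, and most other members above 1 FPKM in dKO oocytes lie above it.

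Type I cadherins are the classical cadherins of adherens junctions. Cdh1 was at 76.1, 113 and 83.8 FPKM in dKO oocytes and at 94.5, 121 and 98.6 FPKM in controls, so the groups overlapped (log2 change -0.22 ± 0.19 SE, limma adjusted p = 0.446). Cdh3, which encodes P-cadherin and lies next to Cdh1 on chromosome 8, also overlapped, at 16.5, 27.8 and 14.1 FPKM in dKO and 19.4, 19.8 and 16.1 FPKM in control oocytes (limma adjusted p = 0.960). Cdh2, which encodes N-cadherin of neural and mesenchymal cells, was higher in every dKO library, at 22.2, 15.1 and 13.7 FPKM against 5.31, 4.76 and 6.39 FPKM in controls. Its log2 change was 1.45 ± 0.22 (SE, limma adjusted p = 0.00212). Its mean in dKO oocytes was 3.10 times that of controls. Cdh4, which encodes R-cadherin, first described in the retina, was also higher in every dKO library, at 5.96, 8.89 and 9.13 FPKM against 4.53, 4.76 and 5.49 FPKM in controls. Its change did not pass the test (log2 0.58 ± 0.22, limma adjusted p = 0.0888), but passed without dKO replicate 1 (0.0298). Cdh15, the M-cadherin of muscle, lay just below the filter, at 0.866, 1.07 and 1.31 FPKM in dKO and 0.280, 0.148 and 0.287 FPKM in control oocytes.

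Type II cadherins are expressed in restricted patterns in the nervous system and in mesenchyme. The filter left 5 of the 13, and 4 of these rose while 1 fell, against 14.0% and 7.04% of all tested genes. Cdh19 and Cdh8 are among the rises that passed the filter through dKO libraries alone, so the count supports nothing about the subfamily. Cdh19, known from the Schwann cell lineage, was at 4.06, 2.80 and 2.32 FPKM in dKO and at 0.384, 0.225 and 0.288 FPKM in control oocytes (log2 change 1.62 ± 0.20 SE, limma adjusted p = 0.000690). Cdh8, a cadherin of cortical circuits, was at 2.69, 4.25 and 2.43 FPKM in dKO and at 0.478, 0.288 and 0.809 FPKM in control oocytes (1.42 ± 0.23, limma adjusted p = 0.00259). For both genes the lowest dKO value was above the highest control value. Cdh9, which acts at hippocampal synapses, was at 5.75, 4.56 and 5.04 FPKM in dKO and at 2.41, 2.26 and 2.27 FPKM in control oocytes (0.88 ± 0.19, limma adjusted p = 0.0113). Cdh18, a further neural type II cadherin, was at 3.31, 3.11 and 2.30 FPKM in dKO and at 1.47, 0.785 and 0.944 FPKM in control oocytes (0.92 ± 0.21, limma adjusted p = 0.0143). The calls of Cdh9 and Cdh18 were lost without single controls and under quantile normalization (limma adjusted p = 0.0576 and 0.0694). Their limma adjusted p was 0.0502, 0.0630 and 0.0543 for Cdh9 without control replicates 1, 2 and 3, and 0.0795 and 0.0655 for Cdh18 without control replicates 2 and 3.

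Cdh24, a type II cadherin that binds catenins, was the only 1 of the 5 tested type II genes to fall. It was at 1.20, 2.41 and 1.18 FPKM in dKO and at 3.38, 3.46 and 3.19 FPKM in control oocytes (log2 change -0.78 ± 0.23 SE, limma adjusted p = 0.0406). The call was lost without dKO replicate 1 or 3 (0.0990 and 0.0773) and without control replicate 1, 2 or 3 (0.122, 0.133 and 0.108). It was also lost with no filter, a filter on the mean and array weights (limma adjusted p = 0.0971, 0.0536 and 0.0567). The type II genes form runs in the genome, as named in RefSeq for GRCm38.p6. Cdh6, Cdh9, Cdh10, Cdh12 and Cdh18 follow each other on chromosome 15 with at most 1 other protein-coding gene between neighbours. Of these, Cdh9 and Cdh18 passed the filter and rose. Cdh6 and Cdh12 stayed at or below 0.247 FPKM in every library, and Cdh10 never reached 0.1 FPKM. On chromosome 1 Cdh7 and Cdh19 are adjacent, and Cdh20 is 21 protein-coding genes away. Cdh20 was just outside the filter at 3.15, 1.32 and 0.945 FPKM in dKO and at 0.0366, 0.0101 and 0.143 FPKM in control oocytes, with no overlap. Cdh7 was at 1.10, 0.660 and 0.123 FPKM in dKO and at 0.0715, 0.0904 and 0.0901 FPKM in control oocytes, again with no overlap.

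The promoters of Cdh9, which rose, and Cdh24, which fell, are shown as those of 2 type II genes with opposite changes. The number of CG dinucleotides is given as a description only, and Cdh8, a type II gene that rose, held 21. The sequences are from RefSeq on GRCm38.p6, not the mm9 build of the deposited values, and run from 250 bases before to 50 bases after the gene's start, 5′ to 3′ on the gene's strand, with each CG in capitals. The Cdh9 promoter, at chr15:16728665-16728964 on the plus strand, held 8 CGs, and 48.6% of the 32851 mouse promoters in the table held as many or more. The Cdh24 promoter, at chr14:54641315-54641614 on the minus strand, held 30, as many or more than which 11.7% of promoters held.
Cdh9: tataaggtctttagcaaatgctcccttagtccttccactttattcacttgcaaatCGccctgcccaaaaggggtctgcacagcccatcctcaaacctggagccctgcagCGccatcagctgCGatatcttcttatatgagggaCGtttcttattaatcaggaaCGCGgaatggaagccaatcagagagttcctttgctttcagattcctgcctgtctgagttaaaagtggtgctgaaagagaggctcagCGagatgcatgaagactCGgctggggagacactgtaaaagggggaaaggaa
Cdh24: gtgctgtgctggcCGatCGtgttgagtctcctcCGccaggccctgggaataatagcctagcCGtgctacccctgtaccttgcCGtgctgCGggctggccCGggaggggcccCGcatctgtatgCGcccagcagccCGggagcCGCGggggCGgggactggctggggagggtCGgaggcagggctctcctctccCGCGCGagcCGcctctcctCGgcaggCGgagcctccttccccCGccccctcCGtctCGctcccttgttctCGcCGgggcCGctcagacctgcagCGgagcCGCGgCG

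Non-clustered delta protocadherins are single-gene protocadherins of the nervous system, and delta1 and delta2 members are told apart by conserved motifs of their tails. Pcdh19, a delta2 member on the X chromosome that is mutated in a human epilepsy, showed the largest log2 change of the 17 tested members. It was at 5.76, 4.71 and 4.49 FPKM in dKO oocytes and at 0.191, 0.268 and 0.136 FPKM in controls (log2 change 2.32 ± 0.18 SE, limma adjusted p = 5.5e-05). The mean was 4.99 ± 0.681 FPKM in dKO and 0.199 ± 0.0662 FPKM in control oocytes (SD, n = 3 each), a ratio of 25.1. Pcdhac2, a clustered gene near 0 in controls, had a larger ratio of 43.0. With a pseudocount of 0.1 its log2 change was also larger, at 4.40 against 4.11 for Pcdh19. Pcdh10, a delta2 member of the brain, was at 2.40, 3.71 and 3.45 FPKM in dKO and at 1.95, 1.77 and 1.76 FPKM in control oocytes. The groups did not overlap, but the change did not pass (0.55 ± 0.20, limma adjusted p = 0.0845), except without dKO replicate 1 (0.0378). Pcdh17 and Pcdh8, delta2 members of brain circuits, were below the filter. Pcdh17 was at 0.423, 0.584 and 0.635 FPKM in dKO oocytes and listed at 0, 0 and 0.00678 FPKM in controls. Pcdh8 was at 0.277, 0.421 and 0.169 FPKM in dKO oocytes and listed at 0 in the 3 controls. All 4 delta2 genes at 0.1 FPKM or more in a whole group were higher in every dKO library, against 26.7% of all such genes. Pcdh17 and Pcdh8 reached that floor through their dKO libraries alone, so nothing is read from this count. Pcdh18 did not reach the floor.

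Pcdh9, a delta1 member of the nervous system, was the second most abundant member in every control library and fell in dKO oocytes. It was at 13, 17.2 and 21.6 FPKM in dKO and at 28.6, 26.8 and 32.1 FPKM in control oocytes (log2 change -0.75 ± 0.20 SE, limma adjusted p = 0.0297). The groups did not overlap. The call was lost without dKO replicate 1 (0.0541) and without control replicate 1, 2 or 3 (0.0976, 0.0768 and 0.128). It was also lost with no filter and under quantile normalization (limma adjusted p = 0.0596 and 0.0580). The other delta1 genes, Pcdh1, Pcdh7 and Pcdh11x, were at or below 0.298 FPKM in every library. Pcdh15, which with Cdh23 forms the tip links of hair cells, overlapped between the groups, at 4.53, 5.05 and 6.22 FPKM in dKO and 6.44, 4.71 and 6.01 FPKM in control oocytes (limma adjusted p = 0.760). Cdh23 also overlapped, at 0.581, 1.13 and 0.657 FPKM in dKO and 0.473, 0.608 and 0.449 FPKM in control oocytes, below the filter.

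The promoters of Pcdh19 and Pcdh9 are shown as those of the largest rise and of the abundant member that fell. The window, strand, source and capitals are as for Cdh9 and Cdh24. Both held 18 CGs, and 29.7% of all promoters held as many or more. A further Pcdh9 start in the table, 10 bases away, gave 19. The Pcdh19 window is chrX:133688944-133689243 and the Pcdh9 window is chr14:93890630-93890929, both on the minus strand.
Pcdh19: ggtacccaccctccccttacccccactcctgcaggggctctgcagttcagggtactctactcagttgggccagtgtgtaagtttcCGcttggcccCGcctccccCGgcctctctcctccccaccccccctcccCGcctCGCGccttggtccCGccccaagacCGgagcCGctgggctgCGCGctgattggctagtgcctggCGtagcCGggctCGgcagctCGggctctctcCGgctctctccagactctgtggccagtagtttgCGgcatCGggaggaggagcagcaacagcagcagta
Pcdh9: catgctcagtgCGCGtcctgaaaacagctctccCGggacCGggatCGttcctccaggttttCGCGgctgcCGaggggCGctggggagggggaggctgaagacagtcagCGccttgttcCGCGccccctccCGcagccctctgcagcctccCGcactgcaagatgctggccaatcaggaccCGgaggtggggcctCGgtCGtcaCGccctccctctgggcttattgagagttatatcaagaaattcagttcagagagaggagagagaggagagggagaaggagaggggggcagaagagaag

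The 61 members on chromosome 18, among them Cdh2 and Pcdhac2, were left out of the promoter search. The values over all promoters left out no chromosome. RefSeq promoters were read for 22 of the 93 members, 6 of them among the 11 called. Over the 25 promoters of these 22 genes the median was 14 CGs, against 7 over all promoters. Among called members Cdh8 held 21 and Cdh18 held 12, and among those not called Pcdh10 held 24 and Pcdh15 held 8. The motif TATAAA, searched on both strands, was present in 2 of the 25 promoters, those of Pcdh15 and Pcdh8, and in 13.6% of all promoters.

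Cadherins outside both types include Cdh17 and Cdh13. Cdh17, the liver-intestine cadherin, was at 16.2, 14.7 and 9.75 FPKM in dKO oocytes and at 3.20, 3.81 and 2.42 FPKM in controls (log2 change 1.80 ± 0.24 SE, limma adjusted p = 0.00105). It held 8.19%, 6.03% and 4.94% of the family's summed FPKM in dKO libraries and 1.81%, 1.91% and 1.33% in controls. Cdh13, T-cadherin, which has no cytoplasmic tail and is held by a glycosyl anchor, was at 1.40, 1.46 and 2.68 FPKM in dKO and at 0.308, 0.887 and 0.529 FPKM in control oocytes. The groups did not overlap (0.84 ± 0.23, limma adjusted p = 0.0321). The adjusted p was 0.0510 without dKO replicate 3, 0.131 without control replicate 1 and 0.105 without control replicate 3. Under quantile normalization the change was 0.37 (limma adjusted p = 0.353). The call was also lost with no filter, a filter on the mean and array weights (limma adjusted p = 0.0800, 0.0570 and 0.0723).

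**Figure D3:**
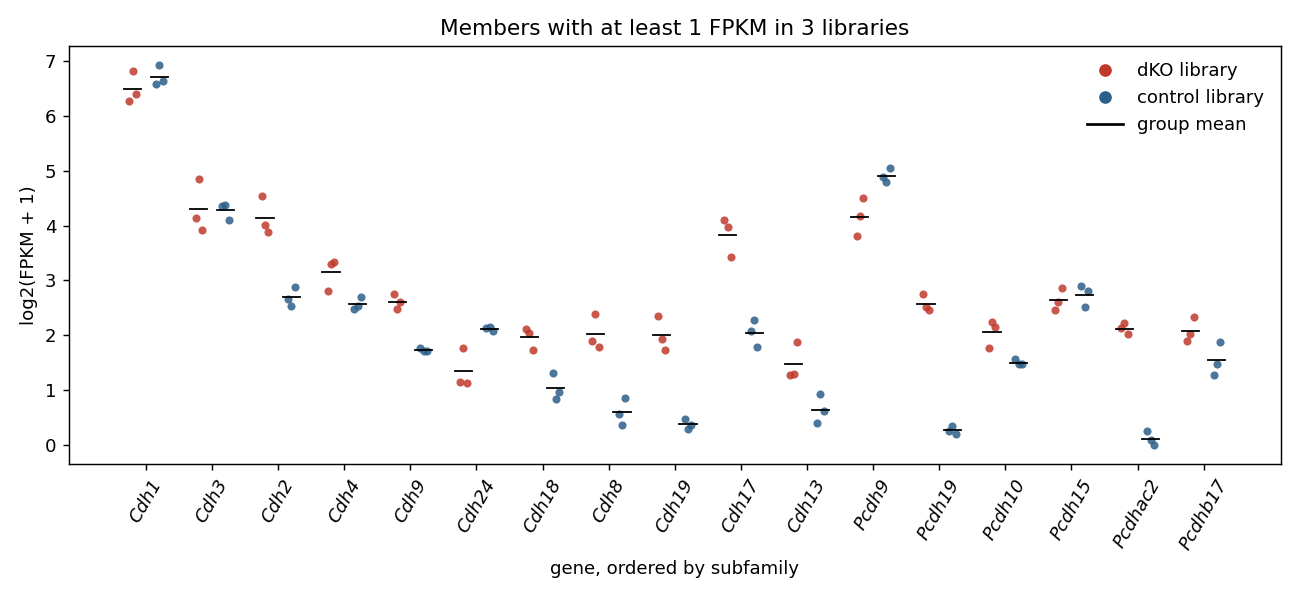
log2(FPKM + 1) of the 17 tested members in each library, ordered by subfamily, with dKO libraries in red to the left of controls in blue and the group mean as a bar. Pcdh19, Pcdhac2 and Cdh19 lie near 0 in controls and clear of it in every dKO library, whereas Cdh1, Cdh3 and Pcdh15 overlap.

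**Figure D4:**
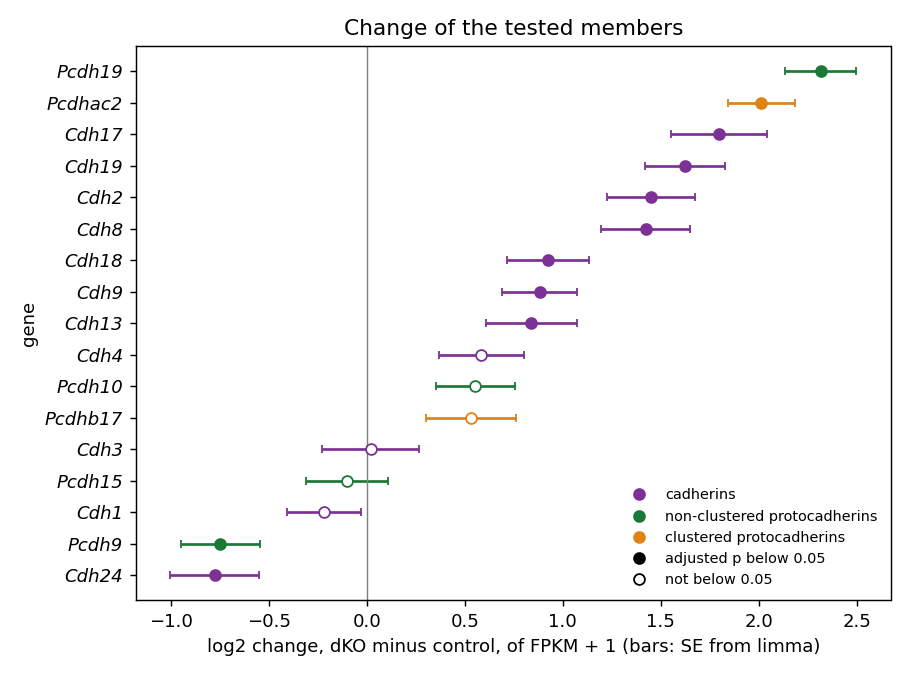
log2 change (dKO minus control, FPKM + 1) of the 17 tested members, with the SE from limma as bars. Filled points passed the adjusted p threshold of 0.05 and open points did not; Pcdh19 leads at 2.32 and Cdh24 is lowest at -0.78.

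The clustered protocadherins lie in 1 array on chromosome 18 and are known for isoform choice in neurons. Of the 58 genes 2 passed the filter. Pcdhac2, the last C-type isoform of the Pcdha cluster, was at 3.39, 3.63 and 3.03 FPKM in dKO oocytes and at 0.180, 0.0540 and effectively 0 FPKM in controls (log2 change 2.01 ± 0.17 SE, limma adjusted p = 7.9e-05). It made up most of the summed level of its cluster in dKO oocytes. Without it, the other 13 Pcdha genes summed to 1.05, 0.765 and 0.948 FPKM in dKO and to 0.806, 0.232 and 0.324 FPKM in control oocytes, so the groups overlapped. Pcdhb17 was at 2.69, 3.04 and 4.0 FPKM in dKO and at 1.41, 1.77 and 2.69 FPKM in control oocytes, where the lowest dKO and the highest control value were about equal. Its change did not pass (0.53 ± 0.23, limma adjusted p = 0.136). Pcdhb15, the next most abundant Pcdhb gene, overlapped, at 0.319, 0.555 and 1.16 FPKM in dKO and 0.0993, 0.398 and 0.438 FPKM in control oocytes, below the filter. Of the 22 Pcdhg genes 5 ever reached 0.1 FPKM, led by Pcdhgb4 at 0.222, 0.0937 and 0.475 FPKM in dKO oocytes and at most 0.0126 FPKM in controls. The Pcdhg cluster summed to 0.503, 0.770 and 0.804 FPKM in dKO and to 0.0502, 0.0286 and 0.0147 FPKM in control oocytes. Reads of the constant exons cannot be assigned to 1 isoform, so values of single Pcdha and Pcdhg genes are uncertain.

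**Figure D5:**
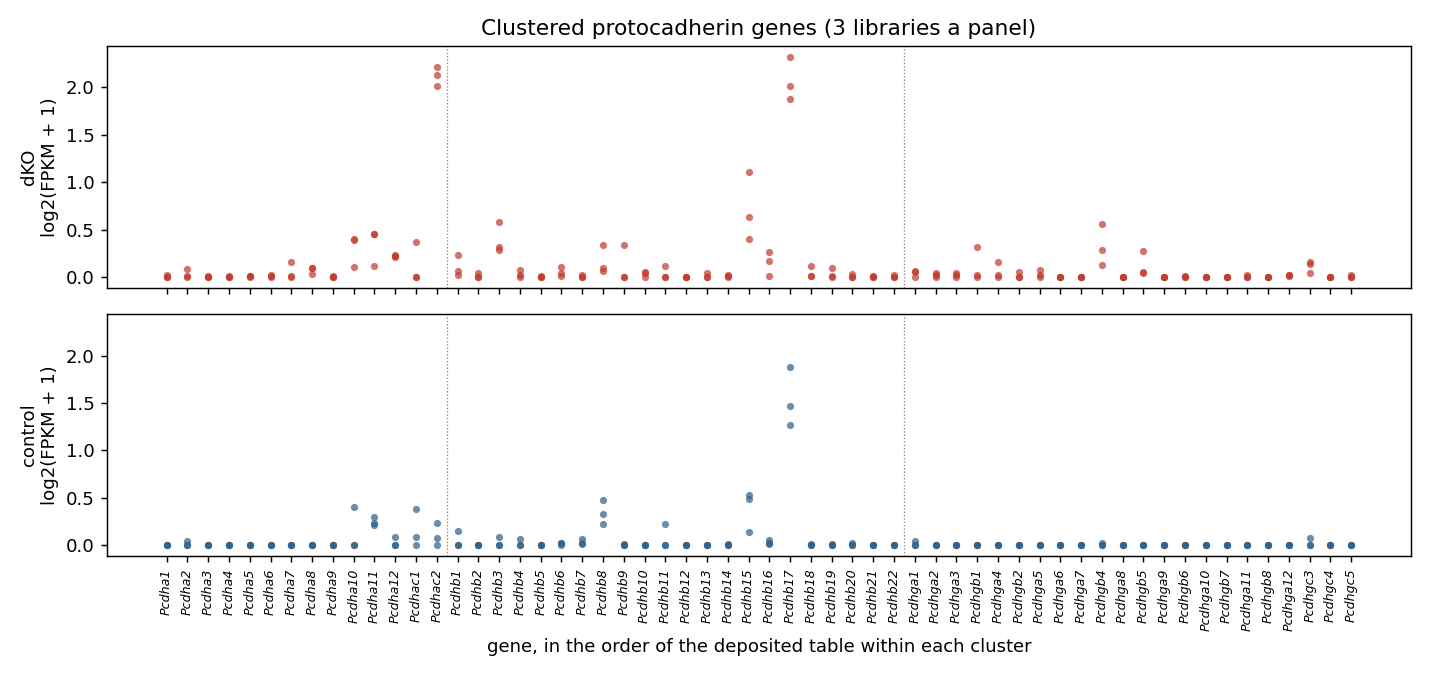
log2(FPKM + 1) of the 58 clustered protocadherin genes in the 3 dKO libraries (upper panel) and the 3 control libraries (lower panel), with 1 point per library and dotted lines between the Pcdha, Pcdhb and Pcdhg clusters. Pcdhac2 and Pcdhb17 stand out in dKO oocytes, and Pcdhb17 in controls.

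The members are spread over 11 chromosomes, with 61 on chromosome 18. The 11 called members have 15 neighbouring genes that are not members, of which 7 were tested, 1 rose and 1 fell. Outside the clusters, 7 of 35 members share exon bases with another gene in GENCODE vM21, among them Cdh8, Cdh9 and Pcdh19 with a gene on the other strand. The use of strand in the deposited values is not given in the sources used here, so their reads cannot be told from those of the overlapping gene.

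Catenins link cadherins to the cytoskeleton, and 13 of the 15 listed were tested. Ctnnb1, which encodes beta-catenin, was at 106, 124 and 99.4 FPKM in dKO and 80.9, 97.2 and 99.3 FPKM in control oocytes and did not pass (limma adjusted p = 0.296). Pkp4, an armadillo protein of the p120 family, was at 48.8, 36.8 and 46.3 FPKM in dKO and 46.4, 45.4 and 47.3 FPKM in control oocytes. Ctnna1, the widely expressed form, fell to 16.7, 25.3 and 21.3 FPKM in dKO oocytes, against 33.9, 37.9 and 46.6 FPKM in controls (log2 change -0.88 ± 0.20 SE, limma adjusted p = 0.0137). The call of Ctnna1 was lost without control replicate 2 or 3 (0.0511 and 0.0749). Ctnna2, the neural form, was at 1.25, 1.36 and 1.11 FPKM in dKO and 0.281, 0.113 and 0.242 FPKM in control oocytes (0.89 ± 0.16, limma adjusted p = 0.00403). It passed the filter through its dKO libraries alone, and its change was 0.30 under quantile normalization (limma adjusted p = 0.225). Ctnna3, a further alpha-catenin, was at 3.54, 2.70 and 2.82 FPKM in dKO and 5.75, 4.23 and 4.22 FPKM in control oocytes and did not pass (limma adjusted p = 0.118).

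Other genes of the cadherin superfamily were read from a list of 27 symbols, 25 of them in the table. Of the 7 tested, 2 rose and none fell (limma, also 2 and 0 at an unadjusted p below 0.05), against 14.0% and 7.04% of all tested genes. Clstn2 passed the filter through its dKO libraries alone. Of all tested genes with a control mean under 1 FPKM, 77.4% rose. Clstn2, a calsyntenin of synapses, was at 3.95, 4.58 and 7.05 FPKM in dKO and 0.0776, 0.0858 and 0.0228 FPKM in control oocytes (log2 change 2.51 ± 0.22 SE, limma adjusted p = 9.7e-05). Fat3, an atypical cadherin of neurons, was at 6.28, 5.60 and 9.38 FPKM in dKO and 2.32, 2.65 and 2.11 FPKM in control oocytes (1.24 ± 0.23, limma adjusted p = 0.00545). Fat1, an atypical cadherin and the most abundant gene of the list, was at 37.1, 52.4 and 48.4 FPKM in dKO and 33.2, 41.1 and 41.6 FPKM in control oocytes and did not pass (limma adjusted p = 0.373). Celsr1, a planar polarity cadherin, overlapped between the groups, at 5.03, 16.9 and 6.91 FPKM in dKO and 9.58, 16.3 and 8.07 FPKM in control oocytes.

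Proteases that cut cadherins or their precursors were tested for 10 of 14 genes. Ncstn, which encodes a subunit of gamma-secretase, and Furin, which removes the cadherin propeptide, both fell, and Pcsk6, a related convertase, rose. Pcsk6 was at 6.89, 9.66 and 6.72 FPKM in dKO and 2.57, 3.77 and 2.55 FPKM in control oocytes (log2 change 1.14 ± 0.23 SE, limma adjusted p = 0.00779). Ncstn was at 11.7, 17.1 and 15.1 FPKM in dKO and 30.8, 26.6 and 30.3 FPKM in control oocytes (-0.96 ± 0.18, limma adjusted p = 0.00562). Furin was at 21.9, 40.8 and 29.0 FPKM in dKO and 47.5, 53.8 and 56.7 FPKM in control oocytes (-0.80 ± 0.22, limma adjusted p = 0.0318). Without dKO replicate 1 or 3 or without control replicate 1, 2 or 3, the call of Furin was lost, at 0.0635, 0.0550, 0.0737, 0.106 and 0.123. With no filter it was lost as well (limma adjusted p = 0.0773). Psenen, a further gamma-secretase subunit and the most abundant gene of the list, was at 116, 137 and 56.8 FPKM in dKO and 195, 181 and 184 FPKM in control oocytes. It did not pass unpaired (-0.94 ± 0.29, limma adjusted p = 0.0512) but did with libraries paired by lane (0.0229). All 15 listed regulators of clustered protocadherins were tested. Of these Dnmt1, the maintenance DNA methyltransferase and the most abundant, ranged widely in dKO oocytes at 264, 509 and 758 FPKM, against 780, 755 and 763 FPKM in controls, and did not pass.

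Markers of other cells were read beside these values. Oocyte markers, led by Gdf9 and Zp3, summed to 4313, 6025 and 5337 FPKM in dKO and 7590, 7448 and 7684 FPKM in control oocytes. Of the 10, 2 fell (limma), against 7.04% of all tested genes, and 7 fell at an unadjusted p below 0.05. Their median log2 change was -0.59, against -0.019 over all tested genes. Granulosa markers summed to 49.4, 48.8 and 47.8 FPKM in dKO and 32.7, 26.3 and 32.4 FPKM in control oocytes. Of the 6 tested, 3 (Fshr, Has2 and Nr5a2) rose (limma), against 14.0% of all tested genes. Fshr and Has2 passed the filter through their dKO libraries alone, so nothing is read from this count. Fshr, the receptor of follicle-stimulating hormone, was at 11.6, 11.1 and 9.24 FPKM in dKO and 0.179, 0.149 and 0.146 FPKM in control oocytes. By the mean over all 6 libraries the highest of the list were Nr5a2, at 24.2, 25.0 and 27.3 FPKM in dKO and 16.6, 14.4 and 18.5 FPKM in control oocytes, and Cyp19a1, at 5.23, 6.19 and 5.93 FPKM in dKO and 11.3, 7.60 and 10.9 FPKM in control oocytes. The call of Nr5a2 was lost without any 1 control (limma adjusted p = 0.106, 0.152 and 0.0661 without control replicates 1, 2 and 3). Under median-ratio scaling it was lost as well (limma adjusted p = 0.0582). The defining granulosa genes Amh and Foxl2 were at or below 0.684 and 0.586 FPKM in dKO libraries, and at or below 1.03 and 0.0972 FPKM in controls. Theca and stroma markers summed to 2.81 to 3.63 FPKM in dKO and 0.597 to 0.931 FPKM in control oocytes. Endothelial markers summed to 20.2 to 27.6 FPKM in dKO and 24.6 to 33.6 FPKM in control oocytes, with Emcn at 0 throughout. Blood markers summed to 1.52 to 3.61 FPKM in dKO and 0.568 to 2.10 FPKM in control oocytes. Surface epithelium markers summed to 2.11 to 5.84 FPKM in dKO and 1.11 to 2.97 FPKM in control oocytes, with Krt19 at 0 throughout. Krt8 rose to 4.89, 5.58 and 1.71 FPKM in dKO oocytes, against 0.0301, 0.167 and 0.0492 FPKM in controls (limma adjusted p = 0.00175). It passed the filter through its dKO libraries alone. Upk3b, below the filter, went the other way, at 0.372, 0.262 and 0.146 FPKM in dKO and 2.86, 0.913 and 1.51 FPKM in control oocytes. The part of these cells in the changes of the cadherin genes was not tested.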

How the data were processed

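Total RNA was measured in 3 dKO and 3 control libraries, each of 15 oocytes. FPKM per gene were deposited by the authors, with 1 column per library, which keep no absolute depth and therefore allow no counting interval. The submitters' processing notes name build mm9, Cufflinks 2.0.2 and TopHat2 2.0.11. How strand was used, and which annotation, is not given in these sources. Of 24525 rows, 497 that repeated a symbol with all its values were removed. Genes that reached 1 FPKM in 3 or more libraries (11334) were fitted with limma 3.58.1 in R 4.3.3 (eBayes with trend, two-sided, pseudocount 1, Benjamini-Hochberg adjustment over all fitted genes, threshold 0.05), which was tested on simulated data. Fold changes on this log2 scale understate those of low genes. No test was run over the members as a set. RefSeq (GRCm38.p6) and GENCODE vM21 gave promoters, neighbours and exon overlap.

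Members, lists and alternatives were chosen with earlier results of these data known. Named are Rnf2, Ring1, every called member, the 3 most abundant of each subfamily, up to 4 called genes in each direction and the 2 most abundant of each partner list, the 2 most abundant markers, and genes at a range's end or by the filter. Further members and marker genes are named after their values were seen. Some genes that the rule takes are left out of the text.

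Same-numbered libraries shared a flow-cell lane, per the labels, so the numbers pair libraries. Their deviations from the group means correlated at 0.147, 0.107 and 0.0637. The dKO libraries shared an index and the controls shared a different one, which cannot be told apart from the groups.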

Additional observations from a re-analysis of the deposited data

How the results depend on the processing

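Over 16 other settings Cdh2 and Cdh17 kept their calls. Cdh8, Cdh19, Pcdh19 and Pcdhac2 were called wherever they were tested. With no filter their limma adjusted p was 0.0190, 0.00738, 0.00212 and 0.00208. The other settings that kept them did so through their dKO libraries, so the calls there say nothing of their stability. A filter at 5 FPKM left 7 members and removed these 4. Members that rose numbered 9 (main), 14 with no filter and 2 at 5 FPKM, and those that fell 2, against 0 with no filter and 1 each at 5 FPKM, with a filter on the mean, with quantile normalization and with array weights. Leaving out single libraries gave 6 to 11 rising and 0 to 2 falling members, and 2 or 3 falling at an unadjusted p below 0.05 (2 with no filter). The replicate block, which pairs libraries by lane, gave 9 and 2 members, all 11 shared with the unpaired fit, and changed no member's call. Among the other named genes it added Psenen, lower in dKO oocytes (adjusted p = 0.0229, limma, against 0.0512 unpaired).

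Of all genes, 1587 rose and 798 fell (66.5% of the calls rises). A filter at 5 FPKM gave 655 rises, median-ratio scaling 1276 falls, and leaving out single libraries 1087 to 1869 rises and 231 to 1465 falls. Rises made up 54.4% of calls under median-ratio scaling and 52.6% under quantile normalization. Under these the members called were 9 and 2, and 6 and 1. The median change of all genes was -0.10 at 5 FPKM.

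Changes of genes that were not called reversed in sign as follows. That of Cdh3 was -0.058 under median-ratio scaling, and -0.069 without control replicate 3 (-0.25 to 0.21 over single libraries left out). That of Pkp4 was 0.024 under quantile normalization and -0.16 to 0.036 over single libraries left out, and that of Celsr1 -0.78 to 0.0088 over the same. That of Cd68, a blood marker, was -0.20 under quantile normalization, and -0.18 to 0.58 over single libraries left out, with -0.013 without control replicate 3. The cause was not tested. Unknown depth limits members below 1 FPKM most.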
